A study of Mus musculus with 68 samples.

Results

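The 10 genes described here make, hold back, bind, break down or respond to retinoic acid, the active form of vitamin A. They were taken by symbol from a table of 21948 mouse genes, with earlier results of these data known: Aldh1a2, Aldh1a3 and Dhrs3 (synthesis and its reversal), Cyp26a1, Cyp26b1 and Cyp26c1 (breakdown), Crabp1 and Crabp2 (binding inside the cell), and Rarb and Rarres1 (response). All 10 were listed, and all 10 passed the filter on low values (at least 1 CPM, a gene's reads scaled to a common library size, in at least 3 libraries), which kept 18428 genes. RNA was sequenced from pharyngeal arch 1 (PA1), the paired swelling beside the embryonic throat from which the jaws form, and from PA2, the next arch toward the tail. The embryos, of the strain CBA/Ca/J x C57BL/10, were wildtype or carried the label Hoxa2-/-, which names a loss of the homeobox transcription factor gene Hoxa2. They were taken at 4 stages of embryonic development: embryonic day 9.0 (E9.0) and then E9.5, E10.0 or, last, E10.5. No treatment was given in the labels, and the allele behind Hoxa2-/- is not described in the sources used here.

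There were 68 libraries in 16 groups, and values that follow each other without a stage are listed from the youngest to the oldest stage. Wildtype PA1 had 5, 5, 5 and 3 libraries and wildtype PA2 had 4, 4, 5 and 3. PA1 with the label Hoxa2-/- had 4, 5, 5 and 3 libraries, as did PA2 with that label. Each library came from 1 arch level of a single embryo, and 33 of 35 embryos (18 wildtype and 17 with the label) gave both arches.

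Retinoic acid is made from vitamin A in a pair of oxidation steps. Retinaldehyde is formed first, and retinaldehyde dehydrogenases such as Aldh1a2 and Aldh1a3 then oxidise it to the acid, while Dhrs3 reduces retinaldehyde back to retinol. Cyp26 enzymes are cytochrome P450 hydroxylases that destroy the acid, so cells that express them are shielded from it. The acid binds nuclear receptors (Rara, Rarb, Rarg) that sit on DNA with Rxr partners at paired hexamer motifs, and several genes of the pathway, Rarb and Cyp26a1 among them, are classic targets of those receptors. In the embryonic head, retinoic acid made by mesoderm behind the arches patterns the hindbrain and the posterior arches, and too much or too little of it malforms the face and the arches.

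The promoters of Cyp26a1 and Rarb are shown because each held a pair of receptor hexamers in the 250 bases before the RefSeq start, while no other matched member did. The search took the hexamer AGGTCA, its variants AGTTCA or GGTTCA, and the variant GGGTCA, in any pairing with the same orientation, on both strands, with 1, 2 or 5 bases between them. RefSeq promoters on GRCm38 matched 8 of the 10 members (Aldh1a3 and Crabp2 were unmatched). Pairs with 5 bases between them lay in 29 of 32851 promoters (0.0883%), among them these 2. Pairs with 1 base between them lay in 54 promoters (0.164%) and pairs with 2 bases between them in 57 (0.174%), with 0 members in either. The sequences run 5′ to 3′ along the gene's own strand, with the 17-base motif in capitals. In Cyp26a1 (chr19:37697558-37697807, plus strand) the motif reads on the opposite strand, from 32 to 16 bases before the start. In Rarb (chr14:16575477-16575726, minus strand) it reads on the gene's strand, from 53 to 37 bases before a start that lies inside the longer annotated gene.
Cyp26a1: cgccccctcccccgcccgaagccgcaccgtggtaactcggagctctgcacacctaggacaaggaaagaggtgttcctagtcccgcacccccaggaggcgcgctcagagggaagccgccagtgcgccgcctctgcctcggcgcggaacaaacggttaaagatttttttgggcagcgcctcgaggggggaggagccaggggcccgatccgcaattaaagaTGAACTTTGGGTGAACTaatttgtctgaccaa
Rarb: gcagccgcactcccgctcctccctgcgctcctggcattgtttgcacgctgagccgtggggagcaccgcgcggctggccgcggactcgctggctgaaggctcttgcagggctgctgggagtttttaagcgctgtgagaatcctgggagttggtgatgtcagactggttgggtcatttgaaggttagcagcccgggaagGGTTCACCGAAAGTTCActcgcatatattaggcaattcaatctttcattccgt
A match describes these letters only, and binding was not measured here.

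Levels are given as deposited, as normalised read counts close to CPM and called so here. Reads per library ran from 8912251 to 20619153, so that 3 reads, the floor at or under which no fold is given, correspond to 0.140 to 0.328 CPM. Markers of arch ectomesenchyme were present throughout, with a summed level of 327 to 1044 CPM over all 8 markers. Their sum was lower in wildtype PA2 than in PA1 at E9.0 (327 to 415 against 544 to 579 CPM). The same held at E10.0 (462 to 554 against 756 to 1044 CPM) and E10.5 (482 to 535 against 796 to 1003 CPM). The arches overlapped in wildtype at E9.5, and with the label at E9.0 and E9.5 but not later. The part of ectomesenchyme in the arch differences below was not tested. Hoxa2 goes against its label: it measured 20.2 to 63.3 CPM in wildtype PA2 and 16.8 to 147 CPM in PA2 labelled Hoxa2-/-, against 0 to 0.926 CPM in all PA1 libraries, and what the allele leaves transcribed was not tested, so the label is given as deposited. The libraries also split into 24 (wildtype at all stages but E10.0) and 44 (wildtype E10.0 and all with the label), with Ski at 26.3 to 108 CPM against 9.28 to 22.8 and no overlap. This split cannot be told apart from the label at any stage but E10.0. In 9 libraries markers of blood or yolk sac exceeded 5 times their median level, and calls that change without them are given below. Fewer cells of a type and less RNA per cell cannot be told apart in such bulk samples.

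Crabp1 and Crabp2 were by far the most abundant of the 10 genes when compared per kilobase of exon. In wildtype PA1 at E9.0, Crabp1 stood at 485 ± 55 CPM per kilobase (SD, n = 5) and Crabp2 at 105.2 ± 4.6. Cyp26a1, Cyp26c1 and Aldh1a3 followed at 12.8 ± 4.4, 11.998 ± 1.6 and 7.83 ± 3.5 CPM per kilobase, with SDs that overlap. Rarb (1.62 ± 0.21), Dhrs3 (1.52 ± 0.35) and Rarres1 (1.11 ± 0.71) did not differ beyond their spread, and Aldh1a2 (0.160 ± 0.11) and Cyp26b1 (0.123 ± 0.056) were lowest. In wildtype PA2 at the same stage (n = 4) Crabp1 (929 ± 112) and Crabp2 (187 ± 49) again stood highest per kilobase. Cyp26a1 (6.68 ± 2.5) and Aldh1a3 (3.40 ± 0.81) followed, with SDs that overlap. The SD of Aldh1a3 also overlaps those of Rarres1, Rarb and Cyp26c1. There Rarres1 (2.94 ± 0.66), Rarb (2.22 ± 0.53) and Cyp26c1 (2.08 ± 0.91) had overlapping spreads, and Cyp26b1 (1.5 ± 0.41) and Dhrs3 (0.952 ± 0.17), whose SDs overlap, stood above Aldh1a2 (0.217 ± 0.12). Of the 10 genes, 4 were at or under the floor of 3 reads in some libraries: Aldh1a2 in 22 of 68 (at 0 reads in 7), Rarres1 in 13 (0 in 3), Cyp26b1 in 9 (0 in 3) and Cyp26c1 in 6.

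**Figure D1:**
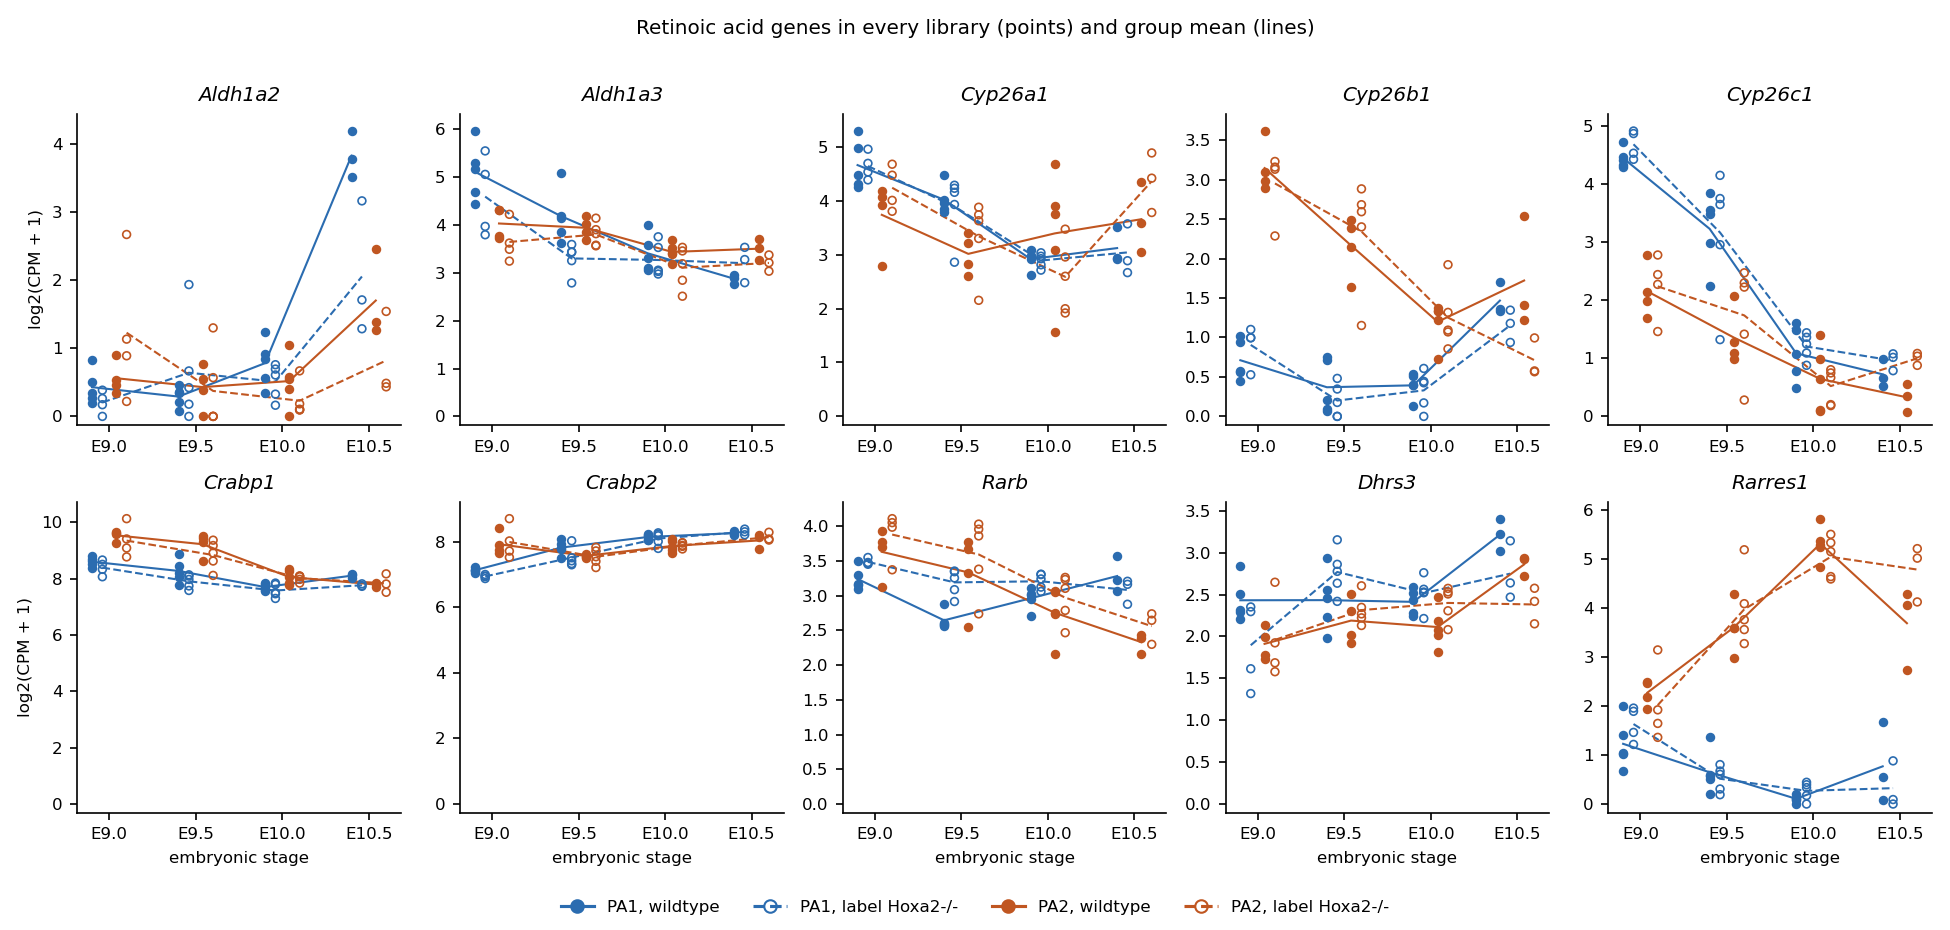
Level of each of the 10 genes in every library, as log2(CPM + 1) on the vertical axis, by embryonic stage on the horizontal axis; blue is PA1 and orange PA2, filled points with solid lines are wildtype and open points with dashed lines carry the label Hoxa2-/-, and lines join group means. Rarres1 rises in PA2 of both labels to 27.5 to 55.8 CPM in wildtype at E10.0, Cyp26c1 starts high in PA1 and falls in all 4 series, and Crabp1 and Crabp2 stay above 116 CPM in every library.

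Differences between arches, labels and stages are given on the log2(CPM + 1) scale, which understates changes of low genes, with adjusted p-values from limma over all 18428 genes and a threshold of 0.05. In wildtype, 7, 6, 2 and 3 of the 10 genes differed between PA2 and PA1 from the youngest to the oldest stage. The same test called 18.7%, 26.3%, 5.94% and 1.52% of all genes. With the label Hoxa2-/-, 6, 4, 2 and 1 of the 10 genes differed between the arches, against 24.6%, 9.58%, 4.23% and 1.37% of all genes. The number of members called thus fell from E9.0 to E10.0 in both labels, as did the share of all genes called between E9.5 and E10.5. Per the series text the 2 arches of an embryo are paired, and Rarres1 was higher in PA2 than in PA1 in 33 of 33 embryos. Cyp26b1 and Crabp1 were higher in PA2 in 29 of 33 embryos each, whereas Cyp26c1 was higher there in 3 and Dhrs3 in 5. For the other genes the counts over all stages were more mixed, with 11 (Crabp2), 12 (Cyp26a1), 14 (Aldh1a2), 15 (Aldh1a3) and 17 (Rarb) of 33 higher in PA2. These counts pool stages that differed. Crabp2 and Aldh1a2 were higher in PA2 in 4 of 4 embryos of each label at E9.0 and 0 of 3 at E10.5. For Rarb it was 4 (wildtype) and 3 (label) of 4, then 0 of 3 of each. For Cyp26a1 it was 0 and 1 of 4, then 3 of 3 of each, and for Aldh1a3 0 of 4 of each, then 3 and 1 of 3.

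**Figure D2:**
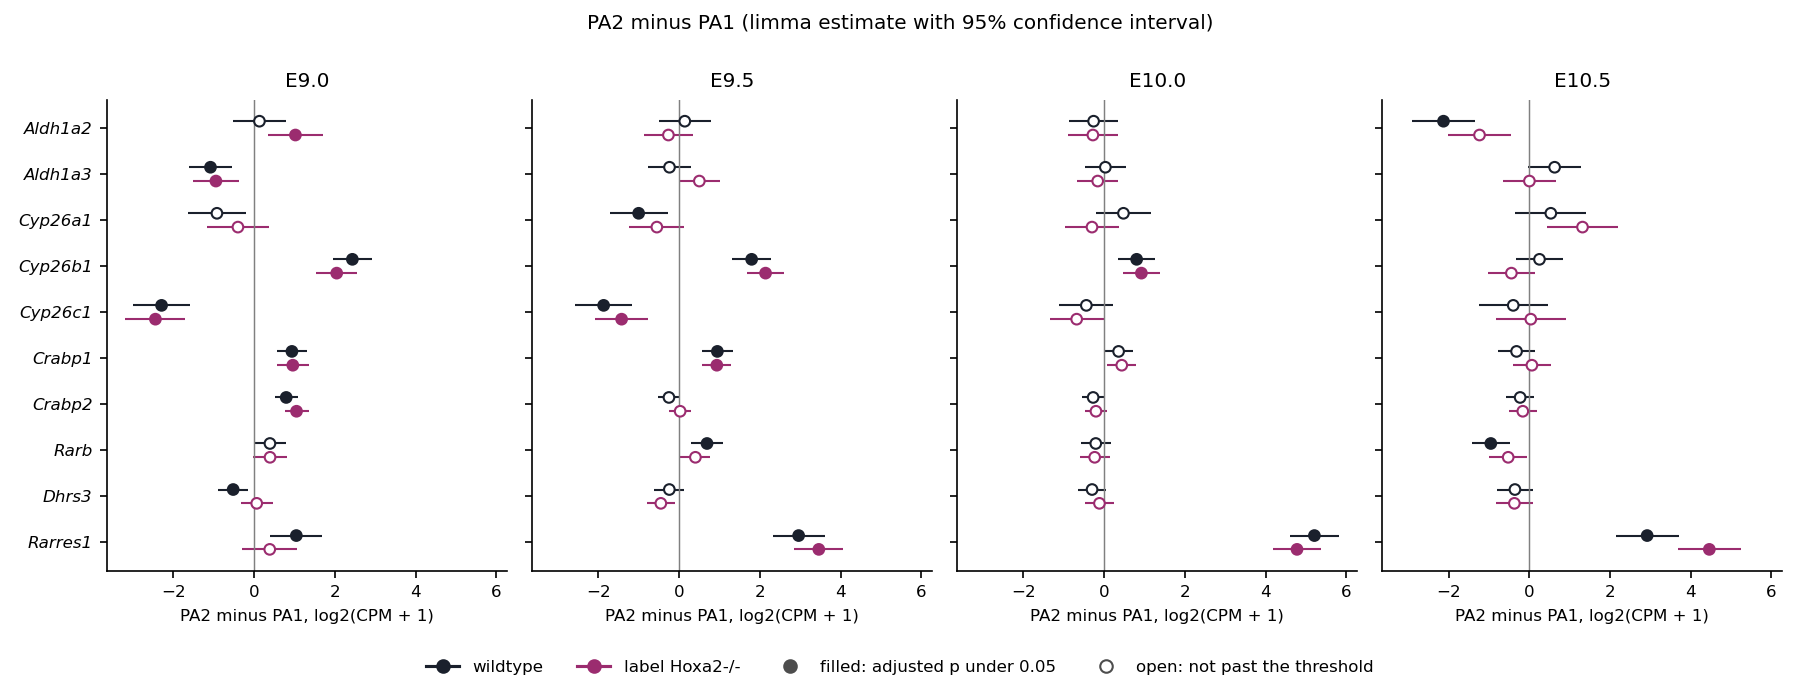
Difference of PA2 minus PA1 in log2(CPM + 1) on the horizontal axis for each gene on the vertical axis, with 1 panel per stage, wildtype in black and the label Hoxa2-/- in purple; bars are 95% confidence intervals from the limma fit and filled points have an adjusted p under 0.05. Rarres1 has estimates above 0 at all 4 stages (open for the label at E9.0), Cyp26b1 starts at 2.43 and 2.05 and ends at 0.25 and -0.44, and Cyp26c1 starts at -2.29 and -2.45 and ends at -0.40 and 0.04.

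Aldh1a2 (ENSMUSG00000013584, GRCm38 chr9:71215789-71296243, plus strand), the main retinoic acid-making enzyme of the early embryo, was near the floor in both wildtype arches until E10.0 and then rose, mostly in PA1. In wildtype PA1 it averaged 0.362, 0.228 and 0.757 CPM at the first 3 stages. At E10.5 its 3 wildtype PA1 libraries read 10.4, 17.2 and 12.7 CPM, and the 3 wildtype PA2 libraries 1.40, 4.48 and 1.61 CPM, with no overlap. With the label, PA1 read 7.94, 1.44 and 2.27 CPM at E10.5 and PA2 read 1.91, 0.400 and 0.351 CPM, so that the arches overlapped.

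PA2 was below PA1 by a log2 difference of -2.12 (SE 0.40) in wildtype at E10.5 (adjusted p = 0.00026). A pseudocount of 0.25 gave -2.46 (adjusted p = 0.055) and the quasi-likelihood test of edgeR on the recovered reads -2.42 (adjusted p = 0.09). With the label the difference at E10.5 was -1.23 (SE 0.40, adjusted p = 0.13, and 0.038 with the embryo as a replicate block). With the label at E9.0, Aldh1a2 was higher in PA2 by 1.02 (SE 0.34, adjusted p = 0.022). That call rested on few libraries: without replicate 4 of PA2, which held 5.35 CPM against 0.164 to 1.19 in the other 3, it was 0.54 (adjusted p = 0.27), without replicate 2 of PA1 it was 0.95 (adjusted p = 0.058), and with only the compared groups fitted the adjusted p was 0.17. From E9.0 to E10.5, Aldh1a2 rose by 3.40 (SE 0.35) in wildtype PA1 (adjusted p = 1.6e-11) and by 1.85 (SE 0.37) in PA1 with the label (adjusted p = 8.3e-05). In wildtype PA2 it rose by 1.14 (SE 0.37, adjusted p = 0.012), or 0.76 (adjusted p = 0.16) without replicate 2 at E10.5, and in PA2 with the label the change was -0.41 (adjusted p = 0.43). In wildtype, a list of lateral plate and somite mesoderm markers (9 of 10 listed) was also high in PA1 at E10.5, where its sum was 143 to 152 CPM. It was 49.3 to 94.9 CPM in wildtype PA2 at that stage and 13.4 to 75.2 CPM in wildtype PA1 at E9.0. In wildtype PA1 at E10.0, where Aldh1a2 averaged 0.757 CPM, the sum already stood at 78.9 to 127 CPM. In PA1 with the label at E10.5, where Aldh1a2 was lower, the sum was 129 to 172 CPM and overlapped that of wildtype. The part of those cells in the result was not tested.

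Aldh1a3 (ENSMUSG00000015134, GRCm38 chr7:66390890-66427517, minus strand), a second retinaldehyde dehydrogenase known from surface epithelia of the head, was highest in PA1 at E9.0 and fell there. Its wildtype PA1 libraries at E9.0 read 61.5, 35.0, 38.6, 20.8 and 24.7 CPM and the PA2 libraries 18.8, 12.2, 12.7 and 19.0 CPM, with all of PA1 above all of PA2. At E10.5 the wildtype order was turned, with 5.77, 6.48 and 6.82 CPM in PA1 and 10.6, 12.2 and 8.65 CPM in PA2, again without overlap. PA2 was lower than PA1 at E9.0 by a log2 difference of -1.08 (SE 0.27) in wildtype (adjusted p = 0.0024) and -0.95 (SE 0.28) with the label (adjusted p = 0.0096). With the label the call was lost without PA1 replicate 1 (-0.63, adjusted p = 0.11) or 3 (-0.79, adjusted p = 0.054), and when only the compared groups were fitted (adjusted p = 0.17). At E10.5 the wildtype difference of 0.63 did not pass the test (95% interval -0.02 to 1.28, adjusted p = 0.74). In PA1, Aldh1a3 fell from E9.0 to E10.5 by 2.24 in wildtype (adjusted p = 6.4e-09) and by 1.39 with the label (adjusted p = 0.00028). The changes in PA2 were -0.53 and -0.44 (adjusted p = 0.17 and 0.29). Surface epithelium markers (8 of 8 listed) summed to 750 to 1121 CPM in wildtype PA1 at E9.0 and 481 to 563 CPM at E10.5, and in PA2 to 714 to 1084 and 398 to 447 CPM. Their part in the fall of Aldh1a3 was not tested.

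Dhrs3 (ENSMUSG00000066026, GRCm38 chr4:144892827-144928209, plus strand), which returns retinaldehyde to retinol and is itself induced by retinoic acid, was low in every library at 1.49 to 9.60 CPM and rose by E10.5. Wildtype PA1 held 3.63 to 6.14 CPM at E9.0 and 7.08, 9.60 and 8.33 CPM at E10.5, without overlap. Wildtype PA2 held 3.40, 2.99, 2.43 and 2.33 CPM at E9.0 and 5.59, 6.64 and 6.60 CPM at E10.5, also without overlap. The rise was 0.78 in wildtype PA1 (adjusted p = 0.0013), 0.95 in wildtype PA2 (adjusted p = 0.00029) and 0.85 in PA1 with the label (adjusted p = 0.0013). In PA2 with the label the change was 0.42 (adjusted p = 0.12). Between the arches Dhrs3 was lower in wildtype PA2 at E9.0 by a log2 difference of -0.52 (SE 0.19, adjusted p = 0.04). That call was lost without any of PA1 replicates 3 and 4 or PA2 replicates 2, 4 and 5 (-0.42 to -0.55, adjusted p = 0.055 to 0.13), and without the blood- or yolk-sac-rich libraries (-0.39, adjusted p = 0.23). With the label at E9.5 the difference was -0.45 (adjusted p = 0.089, and 0.032 with the embryo as a replicate block).

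The 3 Cyp26 genes, which encode the enzymes that clear retinoic acid, differed from each other in arch and time. Cyp26b1 was higher in PA2, Cyp26c1 was higher in PA1, and Cyp26a1 differed between the arches past the test only in wildtype at E9.5. Cyp26a1 and Cyp26c1 are neighbours on chromosome 19 and Cyp26b1 lies on chromosome 6.

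Cyp26b1 (ENSMUSG00000063415, GRCm38 chr6:84571414-84593908, minus strand) was mostly a PA2 transcript at E9.0 and E9.5. At E9.0 the wildtype PA2 libraries read 7.57, 6.41, 11.3 and 6.87 CPM, and the highest of the 5 PA1 libraries read 1.03 CPM. At E9.5 PA2 read 3.41, 4.63, 4.22 and 2.13 CPM against 0.0529 to 0.684 CPM in PA1, where 3 of 5 libraries were at or under the floor. By E10.5 the wildtype arches met, with 1.52, 2.27 and 1.56 CPM in PA1 and 1.66, 4.79 and 1.33 CPM in PA2. The log2 difference of PA2 from PA1 in wildtype was 2.43 (SE 0.24, adjusted p = 1.1e-11), 1.80 (SE 0.24, adjusted p = 9.8e-08), 0.80 (SE 0.22, adjusted p = 0.018) and 0.25 (SE 0.29, adjusted p = 1). With the label it was 2.05 (adjusted p = 1.1e-08), 2.14 (adjusted p = 1.1e-10), 0.92 (adjusted p = 0.0066) and -0.44 (adjusted p = 0.65). The E10.0 calls were lost at a pseudocount of 5 (0.25 and 0.29, adjusted p = 0.17 and 0.11). In wildtype that call was also lost without PA1 replicate 4 (0.74, adjusted p = 0.057) or PA2 replicate 1 (0.76, adjusted p = 0.05), and with the label without PA2 replicate 1 (0.75, adjusted p = 0.065). From E9.0 to E10.5, Cyp26b1 fell in PA2 by 1.42 in wildtype (adjusted p = 2.8e-05) and by 2.24 with the label (adjusted p = 2.4e-09). In wildtype PA1 it rose by 0.76 (adjusted p = 0.015), or 0.64 (adjusted p = 0.091) without replicate 2 at E10.5 and 0.26 (adjusted p = 0.071) at a pseudocount of 5, and in PA1 with the label the change was 0.25 (adjusted p = 0.53).

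Cyp26c1 (ENSMUSG00000062432, GRCm38 chr19:37685581-37693398, plus strand) showed the opposite arch pattern. At E9.0 wildtype PA1 read 20.3, 18.6, 19.1, 21.2 and 25.6 CPM and PA2 read 3.40, 2.24, 2.98 and 5.90 CPM. At E9.5 PA1 read 3.76 to 13.5 CPM and PA2 0.993 to 3.21 CPM, still without overlap, and at E10.5 every wildtype library was under 1 CPM. PA2 was lower by log2 differences of -2.29 (SE 0.35, adjusted p = 1.8e-06) and -1.87 (SE 0.35, adjusted p = 8.8e-05) at E9.0 and E9.5. With the label these were -2.45 (SE 0.37, adjusted p = 1.5e-06) and -1.43 (SE 0.33, adjusted p = 0.0023). The last was not called when only the compared groups were fitted (adjusted p = 0.16). At E10.0 and E10.5 no arch difference passed the test in either label, though with only the compared groups fitted the label's difference at E10.0 did (-0.68, adjusted p = 0.02). The fall from E9.0 to E10.5 passed it in all 4 series, with changes of -3.72 and -3.73 in PA1 of wildtype and of the label (adjusted p = 1.2e-11 and 1.4e-10), -1.82 in wildtype PA2 (adjusted p = 0.00024) and -1.24 in PA2 with the label (adjusted p = 0.014). The last was -1.06 (adjusted p = 0.058) without replicate 3 at E9.0, the library with the highest yolk sac sum (424 CPM), and -1.18 (adjusted p = 0.054) without replicate 1 at E10.5. Without all 9 blood- or yolk-sac-rich libraries its adjusted p was 0.066.

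Cyp26a1 (ENSMUSG00000024987, GRCm38 chr19:37697798-37701536, plus strand), whose promoter is shown above, fell in PA1 and stayed variable in PA2. Wildtype PA1 averaged 25.4 ± 8.8, 15.5 ± 3.4, 6.60 ± 0.86 and 7.88 ± 2.2 CPM (SD) over the 4 stages, and wildtype PA2 averaged 13.2 ± 5.0, 7.28 ± 2.0, 12.1 ± 8.4 and 12.5 ± 6.2 CPM. The PA2 spread at E10.0 ran from 1.96 to 24.6 CPM. In wildtype the log2 difference of PA2 from PA1 was -0.92 (SE 0.36) at E9.0 (adjusted p = 0.064, and 0.028 with the embryo as a replicate block) and -1.004 (SE 0.36) at E9.5 (adjusted p = 0.032). The E9.5 call was lost without PA1 replicate 3 or any of PA2 replicates 1, 2 and 5 (-0.87 to -1.07, adjusted p = 0.05 to 0.099). With the label at E10.5 the difference was 1.32 (adjusted p = 0.16, and 0.041 with the embryo as a replicate block). The fall in PA1 from E9.0 to E10.5 was 1.54 on the log2 scale in wildtype (adjusted p = 0.0011) and 1.60 with the label (adjusted p = 0.0019), while the changes in PA2 were -0.08 and 0.12 (adjusted p = 0.9 and 0.86).

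**Figure D3:**
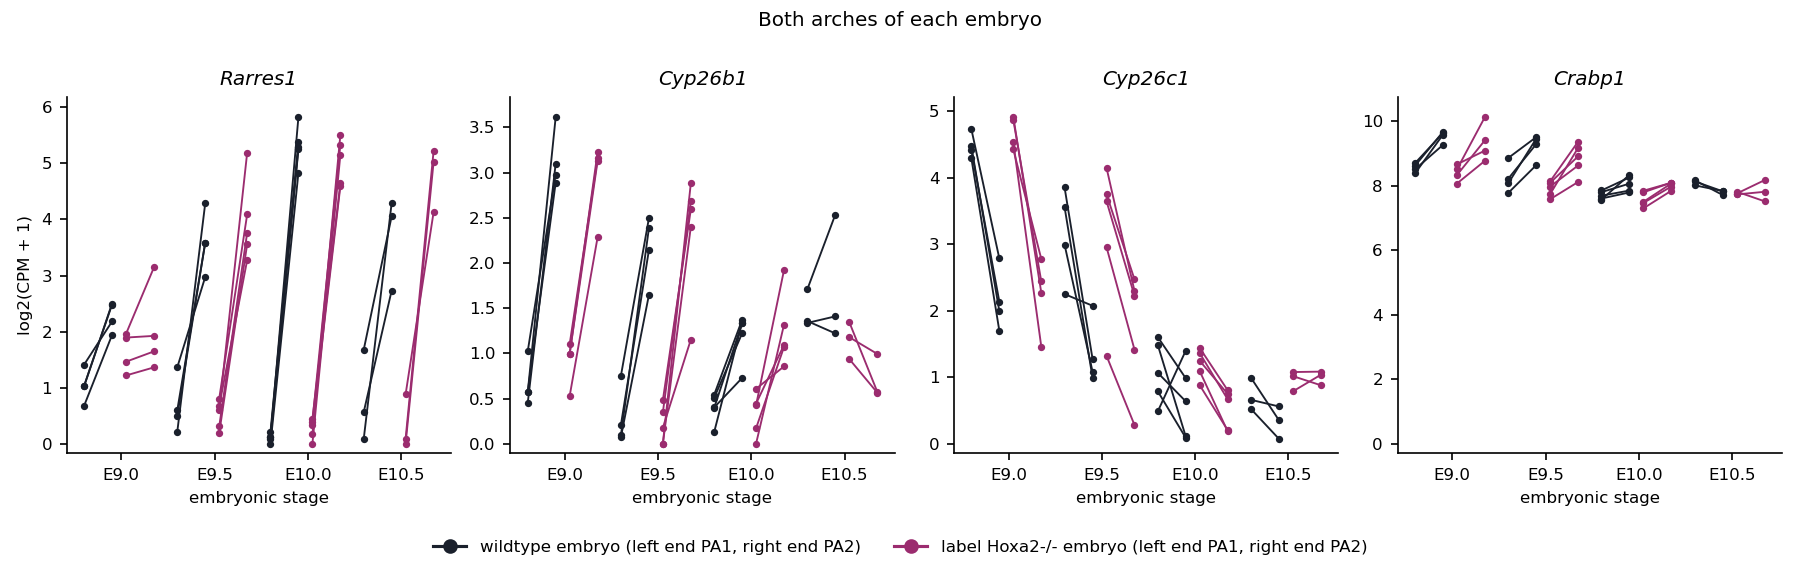
Rarres1, Cyp26b1, Cyp26c1 and Crabp1 in the 33 embryos that gave both arches, as log2(CPM + 1) on the vertical axis, with 1 line per embryo from its PA1 library (left end) to its PA2 library (right end), by embryonic stage on the horizontal axis; black lines are wildtype and purple lines carry the label Hoxa2-/-. The Rarres1 lines all rise toward PA2, and the Cyp26b1 and Cyp26c1 lines slope opposite ways at E9.0 and flatten by E10.5.

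Crabp1 (ENSMUSG00000032291, GRCm38 chr9:54764748-54773110, plus strand), a cytoplasmic retinoic acid-binding protein known as a marker of migrating cranial neural crest, was higher in PA2 at the first 2 stages and fell in both arches. At E9.0 wildtype PA1 read 332 to 445 CPM and PA2 read 613, 791, 765 and 812 CPM, without overlap. At E10.5 wildtype PA1 read 286, 279 and 257 CPM and PA2 208, 226 and 227 CPM, all below PA1. The log2 difference of PA2 from PA1 was 0.94 (SE 0.19, adjusted p = 0.00023) and 0.95 (SE 0.19, adjusted p = 0.00022) at E9.0 and E9.5 in wildtype, and 0.96 (SE 0.20, adjusted p = 0.0003) and 0.93 (SE 0.18, adjusted p = 0.00017) with the label. With only the compared groups fitted, the label's E9.0 difference had an adjusted p of 0.054. At E10.0 PA2 was the higher arch in 5 of 5 embryos of each label, by 0.36 in wildtype (adjusted p = 0.27) and 0.44 with the label (adjusted p = 0.18). The latter had an adjusted p of 0.031 with the embryo as a fixed replicate block and 0.017 with only the compared groups fitted. At E10.5 PA2 was the lower arch in 3 of 3 wildtype embryos, with a difference of -0.31 (95% interval -0.78 to 0.15, adjusted p = 1). From E9.0 to E10.5, Crabp1 fell by 1.75 in wildtype PA2 (adjusted p = 3e-09) and by 1.52 in PA2 with the label (adjusted p = 1.4e-07). The changes in PA1 were smaller: -0.50 in wildtype (adjusted p = 0.048) and -0.63 with the label (adjusted p = 0.022). The former was lost without any of replicates 1, 2, 3 and 5 at E9.0 or 1, 2 and 3 at E10.5 (-0.45 to -0.53, adjusted p = 0.052 to 0.14), without the blood- or yolk-sac-rich libraries (adjusted p = 0.057) and without the filter on low values (adjusted p = 0.053). The latter was lost without any of replicates 1 and 3 at E9.0 or 2 and 3 at E10.5 (-0.54 to -0.62, adjusted p = 0.055 to 0.078).

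Cardiac muscle, neuron and pharyngeal endoderm markers were, like Crabp1 and Cyp26b1, higher in wildtype PA2 than in PA1 at E9.0. Cranial muscle mesoderm markers (5 of 5 listed) were lower there, at 48.2 to 80.0 CPM in PA2 and 81.8 to 117 CPM in PA1. Ectomesenchyme markers were also lower in PA2, as given above. The other marker sums overlapped between the wildtype arches at E9.0. The summed cardiac muscle markers (6 of 7 listed) were 15.5 to 37.0 CPM in wildtype PA1 at E9.0, 39.2 to 1133 CPM in PA2 at E9.0 and 3.99 to 8.22 CPM in PA2 at E10.5. Neuron and ganglion markers (7 of 8 listed) were 30.1 to 49.0 CPM in wildtype PA1 and 101 to 199 CPM in PA2 at E9.0, and pharyngeal endoderm markers (8 of 8 listed) 44.5 to 66.5 and 91.9 to 140 CPM. The neuron sums were still apart at E10.5, at 38.1 to 43.5 CPM in wildtype PA1 and 68.1 to 80.5 CPM in PA2. Crabp1 was by then lower in PA2, and Cyp26b1 overlapped between the arches. Endoderm sums overlapped at E10.5, at 41.3 to 47.8 CPM in wildtype PA1 and 43.0 to 55.5 CPM in PA2. The part of cardiac muscle, neurons and endoderm in these results was not tested.

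Crabp2 (ENSMUSG00000004885, GRCm38 chr3:87948666-87953376, plus strand), which carries retinoic acid to its nuclear receptors, rose in PA1 from a lower start. At E9.0 wildtype PA1 read 131 to 148 CPM and PA2 read 199, 212, 238 and 342 CPM, without overlap. At E10.5 wildtype PA1 read 320, 296 and 303 CPM and PA2 279, 220 and 292 CPM, with PA1 above PA2. The log2 difference of PA2 from PA1 at E9.0 was 0.79 (SE 0.14, adjusted p = 2.8e-05) in wildtype and 1.05 (SE 0.15, adjusted p = 3.4e-07) with the label, and at no later stage did it pass the test in either label. From E9.0 to E10.5, Crabp2 rose in PA1 by 1.13 in wildtype (adjusted p = 1.9e-08) and by 1.36 with the label (adjusted p = 1.8e-09). In PA2 the changes were 0.11 and 0.15 (adjusted p = 0.61 and 0.52).

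Rarb (ENSMUSG00000017491, GRCm38 chr14:16430839-16819156, minus strand), the retinoic acid receptor whose own gene the receptors induce, fell in PA2 from E9.0 to E10.5, with no change past the test in PA1. Wildtype PA2 read 12.6, 7.75, 14.3 and 11.96 CPM at E9.0 and 3.47, 4.42 and 4.27 CPM at E10.5, without overlap. Wildtype PA1 read 7.54 to 10.3 CPM at E9.0 and 7.35, 10.9 and 8.33 CPM at E10.5. The fall in PA2 was 1.30 on the log2 scale in wildtype (adjusted p = 4.3e-06) and 1.32 with the label (adjusted p = 4.6e-06), and the changes in PA1 were 0.04 and -0.40 (adjusted p = 0.89 and 0.17, the latter 0.031 with only the compared groups fitted). PA2 was above PA1 in wildtype at E9.5 by a log2 difference of 0.69 (SE 0.20, adjusted p = 0.007) and below it at E10.5 by -0.95 (SE 0.24, adjusted p = 0.017). The E9.5 call was lost without PA2 replicate 3 (0.58, adjusted p = 0.053) or 5 (0.54, adjusted p = 0.063). The E10.5 call was lost without PA1 replicate 2 or 3 or PA2 replicate 1 or 3 (-0.81 to -0.98, adjusted p = 0.05 to 0.2). With the label the differences of 0.40 at E9.5 and -0.52 at E10.5 did not pass the test (adjusted p = 0.17 and 0.42). At E9.0 with the label the difference was 0.39 (adjusted p = 0.16), or 0.56 (adjusted p = 0.049) without the blood- or yolk-sac-rich libraries. Exons of Rarb overlap the opposite-strand gene Top2b by 1793 bases, and the strand setting of the counting is not given in the sources used here, so reads of both genes may be mixed. Top2b, a DNA topoisomerase gene at 206 to 370 CPM by group, rose in PA2 from E9.0 to E10.5 by 0.57 in wildtype (adjusted p = 0.013) and 0.89 with the label (adjusted p = 0.00017), opposite to Rarb.

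Rarres1 (ENSMUSG00000049404, GRCm38 chr3:67478972-67515523, minus strand), a membrane protein gene first found as a retinoid-induced gene in skin, had the largest arch difference of the 10 genes in both labels at every stage after E9.0. Wildtype PA2 read 4.58, 2.83, 3.53 and 4.65 CPM at E9.0 and 27.5, 40.6, 55.8, 38.0 and 37.2 CPM at E10.0. At E10.5 it read 18.6, 5.64 and 15.6 CPM. Wildtype PA1 read 0.596 to 3.02 CPM at E9.0, and at E10.0 all 5 PA1 libraries were at or under the floor of 3 reads (0 to 0.157 CPM). PA1 and PA2 overlapped at E9.0 and not at the later stages.

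The log2 difference of PA2 from PA1 for Rarres1 in wildtype was 1.045 (SE 0.32, adjusted p = 0.016), 2.96 (SE 0.32, adjusted p = 2.9e-10), 5.21 (SE 0.30, adjusted p = 1.5e-20) and 2.92 (SE 0.39, adjusted p = 2e-07). With the label it was 0.39 (SE 0.34, adjusted p = 0.44), 3.46 (SE 0.30, adjusted p = 1.7e-13), 4.78 (SE 0.30, adjusted p = 9e-19) and 4.46 (SE 0.39, adjusted p = 7.4e-13). The wildtype E9.0 call was lost without PA1 replicate 2 (0.91, adjusted p = 0.055) or PA2 replicate 5 (0.97, adjusted p = 0.051), and at a pseudocount of 5 (0.47, adjusted p = 0.11). At E10.5 PA2 stood above E9.0 by 1.42 in wildtype (adjusted p = 0.0016) and by 2.77 with the label (adjusted p = 2.1e-08). In PA1 the change was -0.46 in wildtype (adjusted p = 0.3) and -1.31 with the label (adjusted p = 0.0043), or -0.43 (adjusted p = 0.16) at a pseudocount of 5.

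The arch differences themselves changed between E9.0 and E10.5 for 8 of the 10 genes in wildtype and 5 with the label, against 3.35% and 7.33% of all genes. In both labels the difference of PA2 minus PA1 fell for Cyp26b1 (changes of -2.1797 and -2.49 on the log2 scale, adjusted p = 9e-05 and 1.5e-05), Crabp2 (-1.02 and -1.21, adjusted p = 0.0029 and 0.00042) and Aldh1a2 (-2.26 and -2.25, adjusted p = 0.0042 and 0.0046). It rose in both for Cyp26c1 (1.90 and 2.49, adjusted p = 0.038 and 0.0041) and Rarres1 (1.88 and 4.08, adjusted p = 0.021 and 3.6e-07). In wildtype it also fell for Crabp1 (-1.25, adjusted p = 0.0077) and Rarb (-1.34, adjusted p = 0.0049) and rose for Aldh1a3 (1.71, adjusted p = 0.0093). With the label, the embryo as a replicate block also called Crabp1 (-0.89, adjusted p = 0.017), Rarb (-0.91, adjusted p = 0.02) and Cyp26a1 (1.72, adjusted p = 0.015), which had adjusted p-values of 0.061, 0.062 and 0.055 without it. As a fixed block it also called Aldh1a3 (0.95, adjusted p = 0.048). Without the blood- or yolk-sac-rich libraries Cyp26a1 (1.87, adjusted p = 0.045) and Rarb (-1.08, adjusted p = 0.027) passed with the label. The wildtype change of Cyp26c1 was lost without any 1 of PA1 replicates 1 and 5 at E9.0, PA2 replicates 1, 2 and 4 at E9.0, or replicates 1, 2 and 3 of either arch at E10.5 (1.75 to 2.03, adjusted p = 0.05 to 0.11), without the blood- or yolk-sac-rich libraries (1.78, adjusted p = 0.089) and at a pseudocount of 0.25 (1.65, adjusted p = 0.31), and edgeR gave 1.22 (adjusted p = 0.65). With the label edgeR gave 2.67 for Cyp26c1 (adjusted p = 0.065). That of Rarres1 was lost without PA1 replicate 3 at E9.0, PA1 replicate 1 or 2 at E10.5 or PA2 replicate 1 or 3 at E10.5 (1.53 to 1.77, adjusted p = 0.051 to 0.13), without the blood- or yolk-sac-rich libraries (1.45, adjusted p = 0.089), with only the compared groups fitted (adjusted p = 0.056) and in edgeR (2.44, adjusted p = 0.066). For Aldh1a2 in wildtype edgeR gave -2.85 (adjusted p = 0.17) and a pseudocount of 0.25 gave -2.75 (adjusted p = 0.079). With the label its change was -1.70 (adjusted p = 0.059) without PA1 replicate 1 at E10.5, and its adjusted p was 0.12 with only the compared groups fitted.

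Comparing the label with wildtype asks what the Hoxa2-/- embryos changed within 1 arch, and few of the 10 genes passed the test. In PA2 the label differed from wildtype in 0, 0, 0 and 1 of the 10 genes over the 4 stages, against 14%, 4.48%, 0.0814% and 10.3% of all genes. In PA1 it differed in 0, 2, 0 and 1, against 2.08%, 23.6%, 0% and 3.05%. At an unadjusted p under 0.05 the counts were 0, 1, 1 and 4 in PA2 and 1, 4, 0 and 2 in PA1. Of all 18428 genes, 5090, 3392, 1420 and 4411 in PA2 and 2624, 6625, 424 and 2793 in PA1 were under it. The adjusted edgeR counts were 0, 0, 0 and 1 in PA2 and 0, 2, 0 and 0 in PA1. Of all genes, edgeR called 2502, 864, 11 and 1801 in PA2 and 363, 4541, 0 and 603 in PA1. At E10.0, where the split of the libraries does not separate the labels, limma and edgeR called 0 members in either arch, with 1 in PA2 and 0 in PA1 at an unadjusted p under 0.05. The 4 calls were Cyp26b1 in PA2 at E10.5 and, in PA1, Aldh1a3 and Rarb at E9.5 and Aldh1a2 at E10.5. When the fit held the compared libraries alone, Cyp26c1 in PA2 (0.67) and Crabp1 in PA1 (-0.34) also passed at that stage (adjusted p = 0.026 for each).

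**Figure D4:**
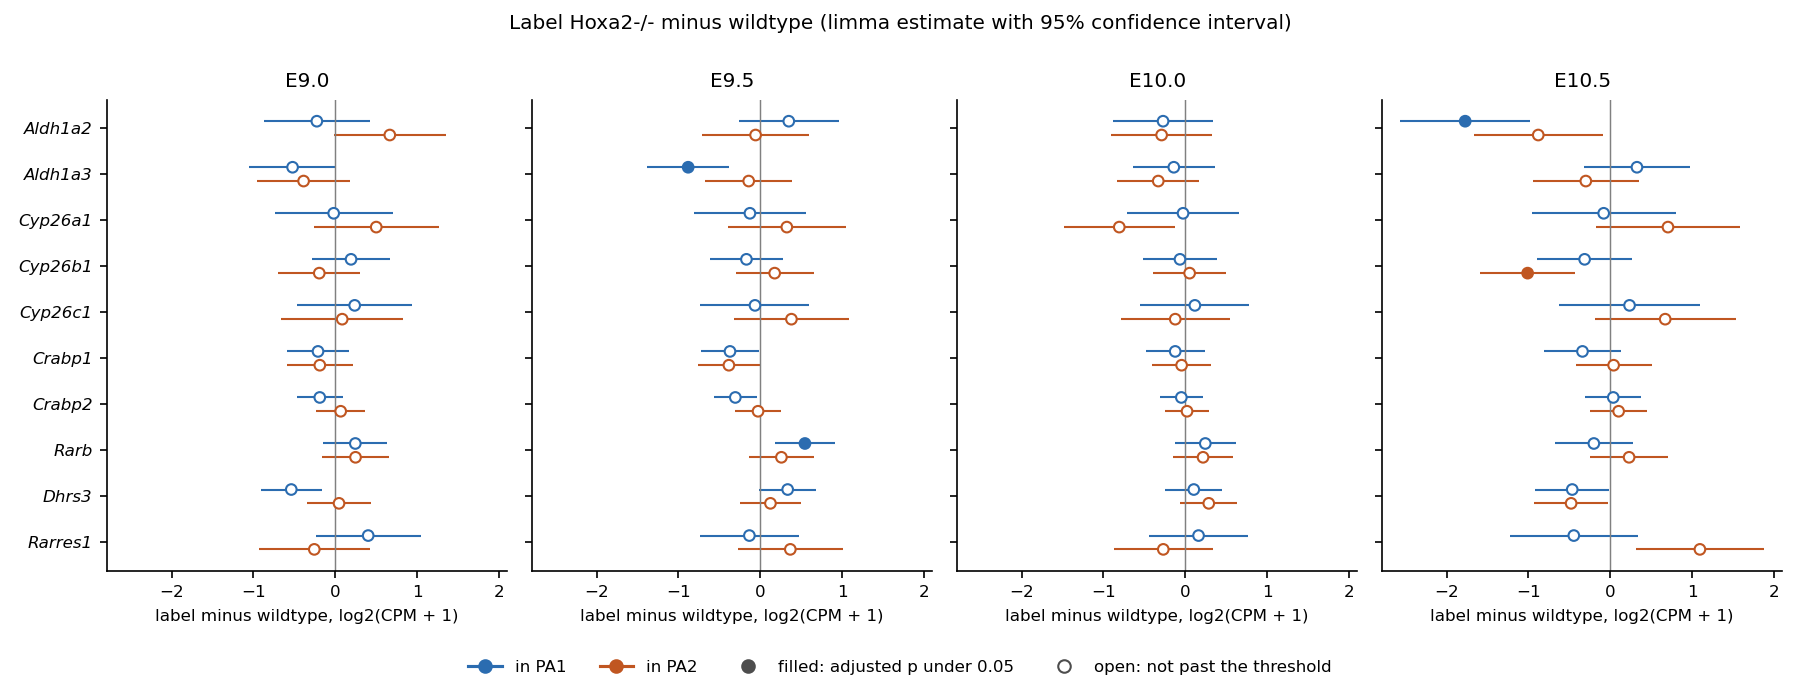
Difference of the label Hoxa2-/- minus wildtype in log2(CPM + 1) on the horizontal axis for each gene on the vertical axis, with 1 panel per stage, PA1 in blue and PA2 in orange; bars are 95% confidence intervals from the limma fit and filled points have an adjusted p under 0.05. Only 4 of the 80 points are filled: Cyp26b1 in PA2 at E10.5 (-1.01), and Aldh1a3 (-0.88) and Rarb (0.55) at E9.5 and Aldh1a2 (-1.77) at E10.5 in PA1.

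Cyp26b1 in PA2 at E10.5 read 1.66, 4.79 and 1.33 CPM in wildtype and 0.991, 0.480 and 0.491 CPM with the label. All 3 label libraries were below all 3 wildtype libraries, with a log2 difference of -1.01 (SE 0.29, adjusted p = 0.016). Without wildtype replicate 2 it was -0.60 (adjusted p = 0.25), without label replicate 2 or 3 it was -0.94 with adjusted p = 0.073 and 0.071, and with only the compared groups fitted the adjusted p was 0.067. Aldh1a3 in PA1 at E9.5 read 17.3, 13.5, 33.1, 16.8 and 11.3 CPM in wildtype and 11.1, 9.81, 5.92, 9.85 and 8.56 CPM with the label. The groups did not overlap, though by a narrow gap, and the log2 difference was -0.88 (SE 0.25, adjusted p = 0.0083), or -0.65 (adjusted p = 0.07) without wildtype replicate 3.

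Rarb in PA1 at E9.5 read 4.94, 5.08, 4.99, 5.05 and 6.35 CPM in wildtype and 9.24, 9.17, 6.55, 7.50 and 8.56 CPM with the label, without overlap. The log2 difference was 0.55 (SE 0.18, adjusted p = 0.025), and it was lost without any of wildtype replicates 1, 3 and 4 or label replicates 1 and 2 (0.51 to 0.53, adjusted p = 0.05 to 0.06). Top2b, which shares exon sequence with it, differed there by 0.33 (adjusted p = 0.12). Aldh1a2 in PA1 at E10.5, given above, was lower with the label by a log2 difference of -1.77 (SE 0.40, adjusted p = 0.005), with no overlap of 3 against 3 libraries. The call was lost without label replicate 2 (-1.39, adjusted p = 0.11) or 3 (-1.60, adjusted p = 0.056), at a pseudocount of 0.25 (adjusted p = 0.1), with only the compared groups fitted (adjusted p = 0.052) and in edgeR (-1.75, adjusted p = 0.19).

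Rarres1 in PA2 at E10.5 read 18.6, 5.64 and 15.6 CPM in wildtype and 16.5, 36.2 and 31.5 CPM with the label, with overlap. The log2 difference of 1.10 (SE 0.39) missed the threshold (adjusted p = 0.061). It passed at a pseudocount of 5 (0.88, adjusted p = 0.015), without the marker-rich libraries (1.10, adjusted p = 0.033), without wildtype replicate 1 (1.39, adjusted p = 0.039) and without label replicate 1 (1.43, adjusted p = 0.029). Whether the label acted differently in PA2 and PA1 was tested at each stage as the difference of the label effects. It passed for 0 of the 10 genes at every stage in limma and in edgeR, against 0%, 0.0109%, 0.0163% and 0.038% of all genes in limma. Its intervals were wide: for Rarres1 at E10.5 the difference was 1.54 (95% interval 0.44 to 2.65, adjusted p = 1). At an unadjusted p under 0.05 the member counts over the stages were 1, 1, 0 and 1. Those of all 18428 genes were 1083, 815, 282 and 602.

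From E9.0 to E10.5, 8 of the 10 genes changed in wildtype PA1, 7 in wildtype PA2, 8 in PA1 with the label and 5 in PA2 with the label. The same contrasts called 42.5%, 36.9%, 31.2% and 30.9% of all genes. Cyp26c1 and Crabp1 fell in all 4 series, with the reservations given above for Crabp1 in PA1 and for Cyp26c1 in PA2 with the label. Aldh1a3 and Cyp26a1 fell and Crabp2 rose in PA1 of both labels and passed the test in neither PA2 series. Cyp26b1 and Rarb fell and Rarres1 rose in PA2 of both labels. The E9.0 and E10.5 wildtype libraries lie on the same side of the library split, as do those with the label.

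Other genes of the pathway came from lists of retinoid supply and storage, receptors, coregulators and responsive genes. Of 17 tested supply and storage genes (28 in the list, 22 listed in the table), 6, 6, 3 and 2 were higher in wildtype PA2 than in PA1 over the stages and 0, 2, 0 and 0 were lower, with median log2 differences of 0.12, 0.15, 0.10 and 0.03. Of all genes, 18.7%, 26.3%, 5.94% and 1.52% were called in either direction in these contrasts. Rdh10, which makes the retinaldehyde that the Aldh1a enzymes use, was called at all 4 stages, at 30.9 against 12.6 CPM at E9.0 (log2 difference 1.23, adjusted p = 1.4e-09) and 34.5 against 21.5 CPM at E10.5 (0.63, adjusted p = 0.037). Cyp1b1, a cytochrome P450 that can also oxidise retinol, was called at all 4 with 67.4 against 13.6 CPM at E9.0 (2.22, adjusted p = 5.7e-12). Stra6, the cell-surface receptor for retinol-binding protein, was higher in PA2 at E9.0 (0.74, adjusted p = 0.0026) and E9.5 (0.85, adjusted p = 0.00051), as was Rdh14 (0.45, adjusted p = 0.00097, and 0.31, adjusted p = 0.02). In PA2 the label changed 0 of the 17 at each stage in limma, against 14%, 4.48%, 0.0814% and 10.3% of all genes. Cyp1b1 fell from E9.0 to E10.5 in all 4 series, by 1.04 and 1.31 in wildtype PA1 and PA2 (adjusted p = 0.00021 and 1.8e-05) and by 1.33 and 0.75 with the label (adjusted p = 1.9e-05 and 0.013).

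Of the 5 other receptor genes, Rxrg was higher in wildtype PA2 at all 4 stages, from 0.69 (adjusted p = 0.0091) at E9.0 to 1.29 (adjusted p = 0.00029) at E10.5. Rarg, which recognises the same ligand as Rarb, was lower in PA2 at E9.0 (-1.26, adjusted p = 2.4e-07; 13.6 against 33.8 CPM) and at E9.5 (-0.53, adjusted p = 0.021). It rose in PA2 to 45.5 CPM at E10.5 (1.69 in wildtype, adjusted p = 1e-09), while Rarb fell there. With the label Rxrb was higher in PA2 at E9.0 (0.49, adjusted p = 0.025) and E10.5 (0.93, adjusted p = 0.00029), stages at which the library split falls on the label. Of the 16 coregulators, 4 were lower in wildtype PA2 at E9.0, and 1 was higher at E9.5. The shares of all genes called in either direction were 18.7% and 26.3% at these stages. In PA2 with the label 4, 5, 0 and 1 of the 16 coregulators were lower than in wildtype and 1, 0, 0 and 1 higher. The shares of all genes called in either direction were 14%, 4.48%, 0.0814% and 10.3%. Nsd1, a histone methyltransferase, was among the lower ones at E9.0 (-0.23, adjusted p = 0.026), E9.5 (-0.27, adjusted p = 0.013) and E10.5 (-0.28, adjusted p = 0.021), and Rere at E9.0 (-0.41, adjusted p = 0.01) and E9.5 (-0.70, adjusted p = 2.2e-05). All of these coregulator calls for the label lay at stages at which the library split cannot be told apart from it.

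Of 20 tested genes known in textbooks to respond to retinoic acid (21 in the list), 11, 10, 9 and 8 were higher in wildtype PA2 and 2, 2, 3 and 2 lower, with median log2 differences of 0.66, 0.52, 0.41 and 0.75. The share of all genes called there in either direction was 18.7%, 26.3%, 5.94% and 1.52%. The medians of all genes in these contrasts lay between -0.02 and 0.01. Meis1, a Hox cofactor, was called at all 4 stages, at 139 against 36.9 CPM at E9.0 (1.91, adjusted p = 7.1e-16) and 267 against 74.1 CPM at E10.5 (1.83, adjusted p = 7.2e-12). Pax1, a gene of pharyngeal pouch endoderm, was higher at all 4 stages (2.17 at E9.0, adjusted p = 1.4e-08, and 3.83 at E10.0, adjusted p = 4.3e-18), as was Fgf15 (3.48 at E9.0, adjusted p = 8e-16). With the label, 0, 3, 2 and 5 of the 20 were lower in PA2 than in wildtype and 0 were higher, against 14%, 4.48%, 0.0814% and 10.3% of all genes. Meis2 and Nr2f1 were among them at E9.5, E10.0 and E10.5: Meis2 by -0.28, -0.47 and -0.66 (adjusted p = 0.0039, 6.3e-07 and 1.2e-08) and Nr2f1, an orphan nuclear receptor gene, by -0.72, -0.81 and -0.64 (adjusted p = 0.012, 0.018 and 0.049). Meis1 was lower at E9.5 (-0.69, adjusted p = 0.0018) and E10.5 (-0.88, adjusted p = 0.00041). The Meis2 and Nr2f1 calls include E10.0, the stage at which the library split does not separate the labels. Those of Meis1 lie only at stages at which the split cannot be told apart from the label. Over time Pax1 and Tbx1 fell and Meis1 rose in all 4 series (mean log2 changes of -2.32, -1.99 and 0.85).

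As a description over the 16 group means, which share libraries and depth, the gene with the most similar pattern (Pearson r of log2 values among 11340 candidates) was Osr2 for Aldh1a2 (0.96), Cpne5 for Aldh1a3 (0.90), Khdrbs2 for Dhrs3 (0.89), Xpnpep1 for Cyp26a1 (0.81), Cap2 for Cyp26b1 (0.95) and Tal2 for Cyp26c1 (0.97). For Crabp1 it was Ttn (0.97), which is one of the cardiac muscle markers, followed by Ramp2 (0.96) and Myocd (0.96). For Crabp2 it was Rab28 (0.92), for Rarb Ankrd6 (0.90) and for Rarres1 Gpm6b (0.96), followed by Hoxaas2 (0.94). In the order of each gene's 16 group means, most neighbouring groups overlapped in range: of 15 neighbouring pairs, 0 stood apart for Aldh1a3, Cyp26a1, Cyp26b1, Crabp1 and Rarb, 1 for Aldh1a2, Cyp26c1, Dhrs3 and Rarres1, and 2 for Crabp2.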

How the data were processed

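Hand-dissected arches gave RNA that was extracted with TRIzol and amplified with SMART-seq v4, and libraries were made with Nextera XT, per the labels' protocols. Per the submitters' processing notes, bcl2fastq 2.18, TopHat2 2.1.1 and R 3.3.2 were used with mm10, and the counting program and its strand setting are not given in the sources used here. The deposited values are a signal per gene whose library totals, 926298 to 1051959, lie near those of CPM. Of these values, 100% were whole multiples of 1 read within 0.01 reads, which gave each library's reads. The analysis had been planned for CPM, and the same test was used.

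Groups came from the sample titles. The 18428 of 21948 genes with at least 1 CPM in at least 3 libraries were fitted with limma 3.58.1 (limma-trend, run in R 4.3.3). The response was log2 of CPM plus a pseudocount of 1, and all 68 libraries entered a model with a separate mean for each group. All adjusted p-values are two-sided, from that fit and Benjamini-Hochberg adjusted over all genes, unless edgeR 4.0.16 (quasi-likelihood test on the recovered reads) or another setting is named. Of the 26 contrasts, the 2 on change of the arch difference were added after the data were seen. The fit was tested on simulated counts, drawn without pairing of arches and with changes placed only in genes above low levels. That test does not cover the pairing or genes near the floor. Intervals and the floor of 3 reads cover counting or replicate error only, since there were no molecular identifiers. Libraries of a group came from separate embryos.

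The results were recomputed with a pseudocount of 0.25 or 5, without the filter or with one at 5 CPM, after scaling by median of ratios, on the compared groups alone, with the embryo as a replicate block (random or fixed), with edgeR, and leaving out the 9 libraries rich in blood or yolk sac markers or each library in turn. The pairing of arches comes from the series text: deviations of same-numbered arches had a median correlation of 0.35 over 33 pairs (30 over 0.1), against -0.12 over 116 pairs with different numbers.

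All 10 members are named. Of each pathway list, up to 4 genes are named for PA2 against PA1 in wildtype and up to 3 for each other comparison: those with the largest mean difference among genes called the same way at 2 or more stages (for time, in all 4 series) and with a mean of at least 5 CPM in a compared group. One gene that this rule names is not reported here. The members and lists were chosen with earlier results of these data known. Promoter sequences are from RefSeq on GRCm38, the build named in the notes as mm10.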

Additional observations from a re-analysis of the deposited data

Results flagged for a closer look

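Among 120 groups of 4 or 5 libraries examined over the 10 genes, 10 held a library far from the others of its group by Dixon's test on CPM. Chance gives about 1 in 20 for normally distributed values, and whether CPM are so distributed was not tested. Replicate 3 of wildtype PA1 at E9.5 was such a library for 3 genes: Aldh1a3 at 33.1 CPM (others 11.3 to 17.3), Cyp26a1 at 21.3 CPM (others 12.8 to 15.2) and Rarres1 at 1.57 CPM (others 0.159 to 0.513). Replicate 5 of that group held Rarb at 6.35 CPM (others 4.94 to 5.08).

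With the label, PA1 at E9.5 held Aldh1a2 at 2.82 CPM in replicate 3 (others 0 to 0.587), one of the libraries rich in blood or yolk sac markers. In the same group Crabp2 stood at 260.2 CPM in replicate 4 (others 156 to 181). In PA2 with the label, Rarres1 stood at 35.6 CPM in replicate 4 at E9.5 (others 8.69 to 16.04) and Cyp26b1 at 3.88 CPM in replicate 4 at E9.0 (others 7.76 to 8.38). Aldh1a2 stood at 0.589 CPM in replicate 4 at E10.0 (others 0.0678 to 0.136), which is 8 reads. In wildtype PA2 at E10.0, Cyp26b1 stood at 0.655 CPM in replicate 3 (others 1.33 to 1.58), which is 6 reads.

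The difference of PA2 minus PA1 at E10.5 departed from that at E9.0, in the limma test of the change itself, for 8 genes in wildtype: Aldh1a2 (-2.26, adjusted p = 0.0042), Aldh1a3 (1.71, adjusted p = 0.0093), Cyp26b1 (-2.1797, adjusted p = 9e-05), Cyp26c1 (1.90, adjusted p = 0.038), Crabp1 (-1.25, adjusted p = 0.0077), Crabp2 (-1.02, adjusted p = 0.0029), Rarb (-1.34, adjusted p = 0.0049) and Rarres1 (1.88, adjusted p = 0.021). With the label it did so for 5: Aldh1a2 (-2.25, adjusted p = 0.0046), Cyp26b1 (-2.49, adjusted p = 1.5e-05), Cyp26c1 (2.49, adjusted p = 0.0041), Crabp2 (-1.21, adjusted p = 0.00042) and Rarres1 (4.08, adjusted p = 3.6e-07). The shares of all genes called were 3.35% in wildtype and 7.33% with the label. These contrasts were added after the data were seen. Settings that ended calls for Aldh1a2, Cyp26c1 and Rarres1 are given above.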

How the results depend on the processing

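Of 260 comparisons of a member, 76 passed the test, 49 of them under every alternative run and 27 not under at least 1; of the 184 that did not pass, 21 passed under at least 1. None that passed changed sign. Leaving out each library in turn gave 16 to 19 calls for wildtype arches (18 with all libraries), 12 to 14 for arches with the label (13), 26 to 29 for stages (28), 11 to 14 for the change of the arch difference (13) and 0 to 0 for the difference of the label effects (0). For the label it gave 0 to 2 in PA2 (1) and 1 to 4 in PA1 (3). In PA2 the label count was 2 at a pseudocount of 5 and 2 without the libraries rich in blood or yolk sac markers. With the embryo as a replicate block the calls were 19 for wildtype arches, 16 for arches with the label, 28 for stages, 1 and 3 for the label in PA2 and PA1, and 0 for the difference of the label effects. As a fixed block the calls were 19 for wildtype arches, 17 for arches with the label and 17 for the change of the arch difference, against 16 for the random block. Neither form of the block ended a call, and the calls they added are named above. The cause of these changes was not tested. The change of the arch difference gave 9 calls in edgeR. Levels at or under 3 reads limit Aldh1a2, Cyp26b1, Cyp26c1 and Rarres1.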
